A study of Mus musculus with 2 samples.

Results

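Prostaglandins are short-lived lipids made from arachidonic acid, and 9 genes of their synthesis, sensing and breakdown were followed across the cells of the mouse optic nerve. The 9 were chosen by their symbols, of 32285 genes measured: Ptgs1 and Ptgs2, Ptgds, Hpgds, Ptges and Tbxas1, Ptger2 and Ptger4, and Hpgd. The nerves came from Nf1-OPG mice (Nf1flox/neo; GFAP-Cre), which carry a floxed and a neomycin-disrupted Nf1 allele, lose Nf1 in cells where the GFAP promoter drives Cre, and form optic gliomas. One group had been given an antibody against PD-1 (labelled anti-PDCD1), the product of Pdcd1, and the other an antibody against TIGIT, both receptors that restrain T cells. Each group was a single droplet 5' library from the pooled nerves of 10 mice aged 12 weeks, sorted for live cells, and all mice carried the tumour genotype. No untreated or tumour-free nerve was analysed here, so every difference is one between the antibody-treated groups. Each group was 1 library, so antibody and library cannot be told apart. With 1 library per group there was no replicate check, no test was run, and intervals in parentheses are 95% intervals that cover counting error only.

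The anti-PD-1 library held 85031565 UMIs in 13997 barcodes and the anti-TIGIT library 40733655 UMIs in 7915 barcodes, of which 13275 and 7495 cells were kept. Cells were assigned to types by gates: a cell entered a gate when at least 3 of its markers had a UMI and no other gate took it. Of 136 markers, 134 were higher in their own gate than in all other gated cells together, and the other two, Gh and Prl, were at 0 among the endocrine cells. Of kept cells, 9402 anti-PD-1 and 5661 anti-TIGIT cells fell into a single gate, and 2563 and 1275 into none. Levels are given as CPM, a gene's UMIs per 1000000 UMIs of the gate. Macrophage RNA was counted outside macrophages: C1qa, a macrophage gene, stood at 127 CPM in anti-PD-1 CD8 T cells and 9.41 CPM in anti-TIGIT CD8 T cells. The libraries shared 163 barcode sequences, came from different Cell Ranger versions, and both held cells of male and female mice.

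Synthesis begins when the H2 synthases encoded by Ptgs1 (COX-1) and Ptgs2 (COX-2) turn arachidonic acid into prostaglandin H2. Terminal enzymes then make prostaglandin D2 (Ptgds, Hpgds), prostaglandin E2 (Ptges) or thromboxane A2 (Tbxas1), and Hpgd, a dehydrogenase, begins the breakdown of prostaglandins. Prostaglandin E2 acts on T cells and myeloid cells through the cAMP-raising receptors EP2 and EP4, which Ptger2 and Ptger4 encode. In brain, Ptgds is a known product of oligodendrocytes and of the leptomeninges, the thin inner membranes around the nerve.

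The 9 genes fell to different cells. Ptgds was highest in oligodendrocytes, Ptgs1 and Hpgds in microglia, Ptges in fibroblasts, Ptgs2 and Ptger4 in cDC2 (a dendritic cell type that primes CD4 T cells), and Ptger2 in CD4 T cells, each of these 7 in both libraries. The 2 exceptions were Tbxas1 and Hpgd, which were highest in border macrophages (macrophages of the meninges and vessels) in the anti-PD-1 library and in microglia in the anti-TIGIT library. For Hpgd the anti-TIGIT levels, 332 CPM (304 to 362) in microglia and 327 CPM (301 to 355) in border macrophages, did not differ beyond counting error. This order was taken over the 14 gates with at least 50 cells in each library. Some smaller gates, left out of it, stood above the gate named here for Ptgs2, Ptger4 and Hpgds, as given below.

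**Figure D1:**
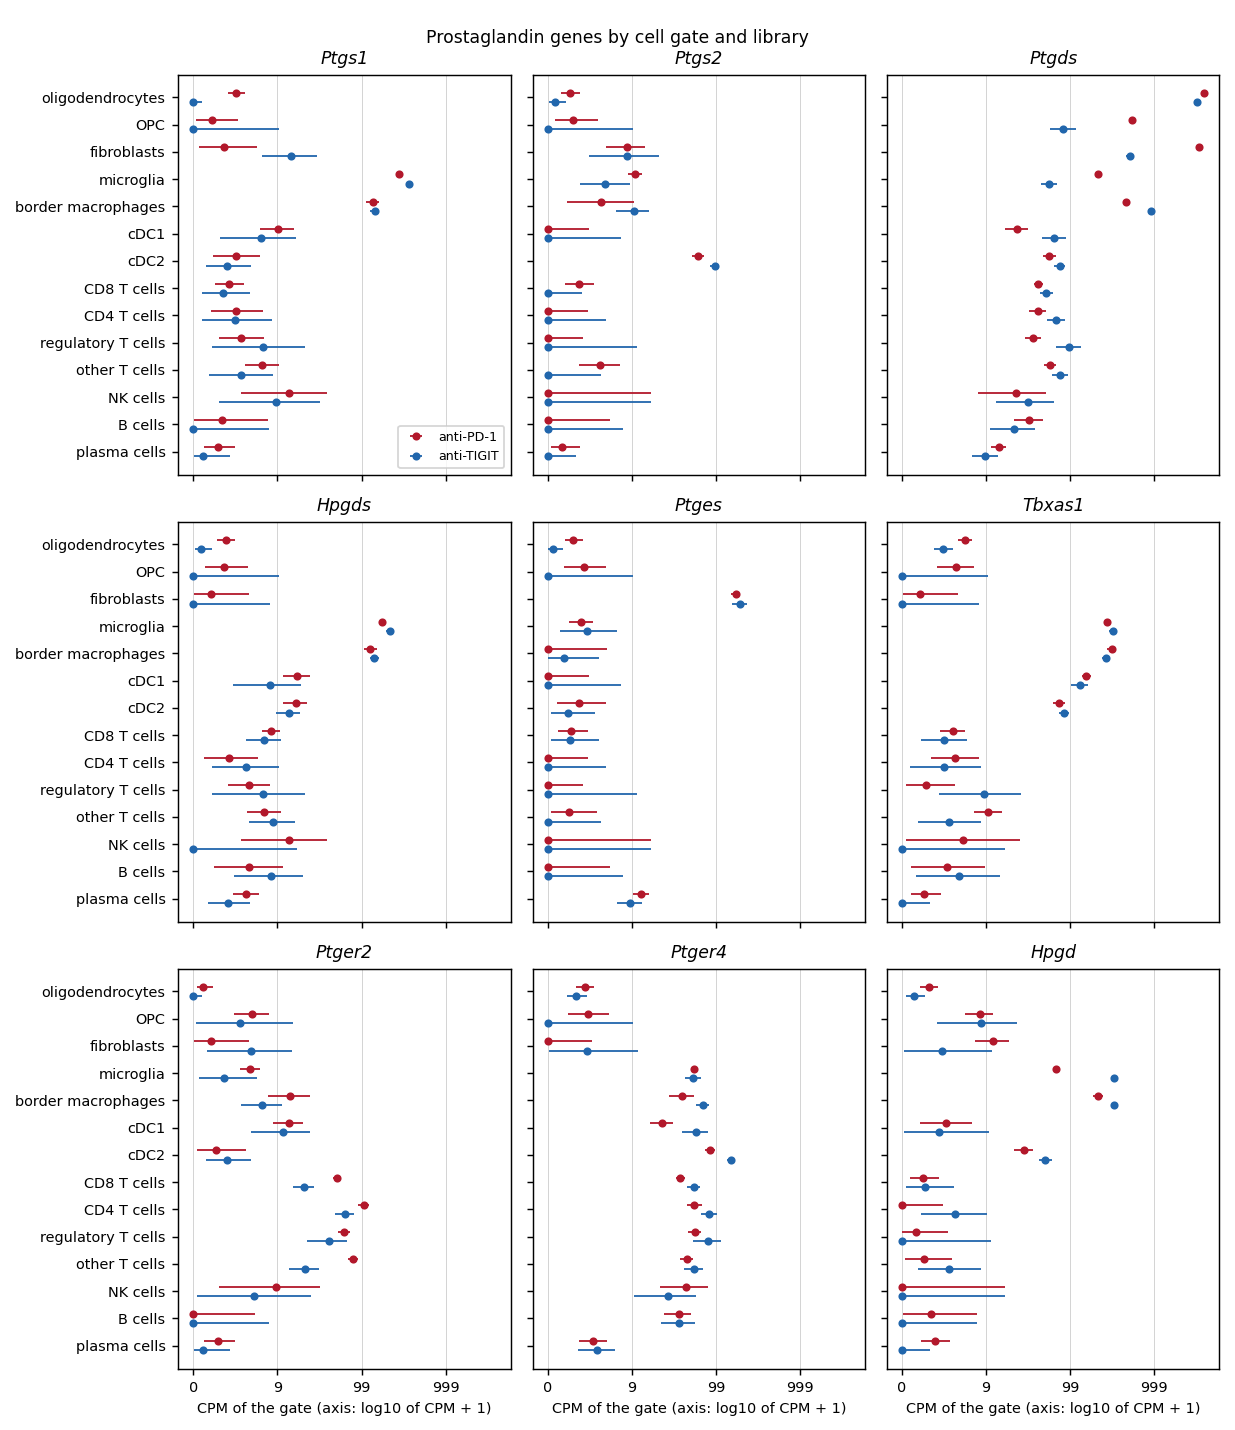
Level of each of the 9 genes (CPM, on an axis of log10 of CPM + 1) in 14 gates, with anti-PD-1 in red above anti-TIGIT in blue; bars are 95% Poisson intervals of counting error. Ptgds in oligodendrocytes lies at 3890.3 CPM (anti-PD-1) and 3247 CPM (anti-TIGIT), and Ptges is above 20 CPM in fibroblasts and in no other gate drawn.

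Ratios between the libraries were taken in the 9 gates with at least 100 cells in each, and a gene was called where log2 of (CPM + 5) differed by at least 1. Of 81 pairs of a gene and a gate, 52 held at least 10 UMIs, and of these 3 were called higher and 1 lower in the anti-PD-1 library. In microglia 1 of 9 members was called higher, against 1.22% of all genes with at least 10 UMIs there, and 1 lower, against 2.15%. In CD8 T cells 1 of 6 was called higher (1.59% of all genes) and 0 lower (0.646%). Other T cells, as named below, had no Foxp3 UMI and had UMIs of both or of neither of Cd4 and Cd8 (Cd8a, Cd8b1). In other T cells 1 of 6 was called higher (2.83%) and 0 lower (0.795%).

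No member was called in the remaining 6 gates. The shares of all genes called higher and lower there were 1.76% and 0.216% in oligodendrocytes, 1.25% and 1.83% in border macrophages, and 0.778% and 0.943% in cDC2. They were 3% and 1.03% in CD4 T cells, 3.79% and 5.89% in B cells, and 1.28% and 0.853% in plasma cells. Over all 52 pairs the interval of the ratio lay above 0 in 14 and below 0 in 15. With 8 of 9 members at 10 or more UMIs in oligodendrocytes, 7 had an interval above 0 there, and 6 of those 7 stood below 5 CPM in both libraries. How many of all genes had an interval above or below 0 was not counted, so these counts have no background share.

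**Figure D2:**
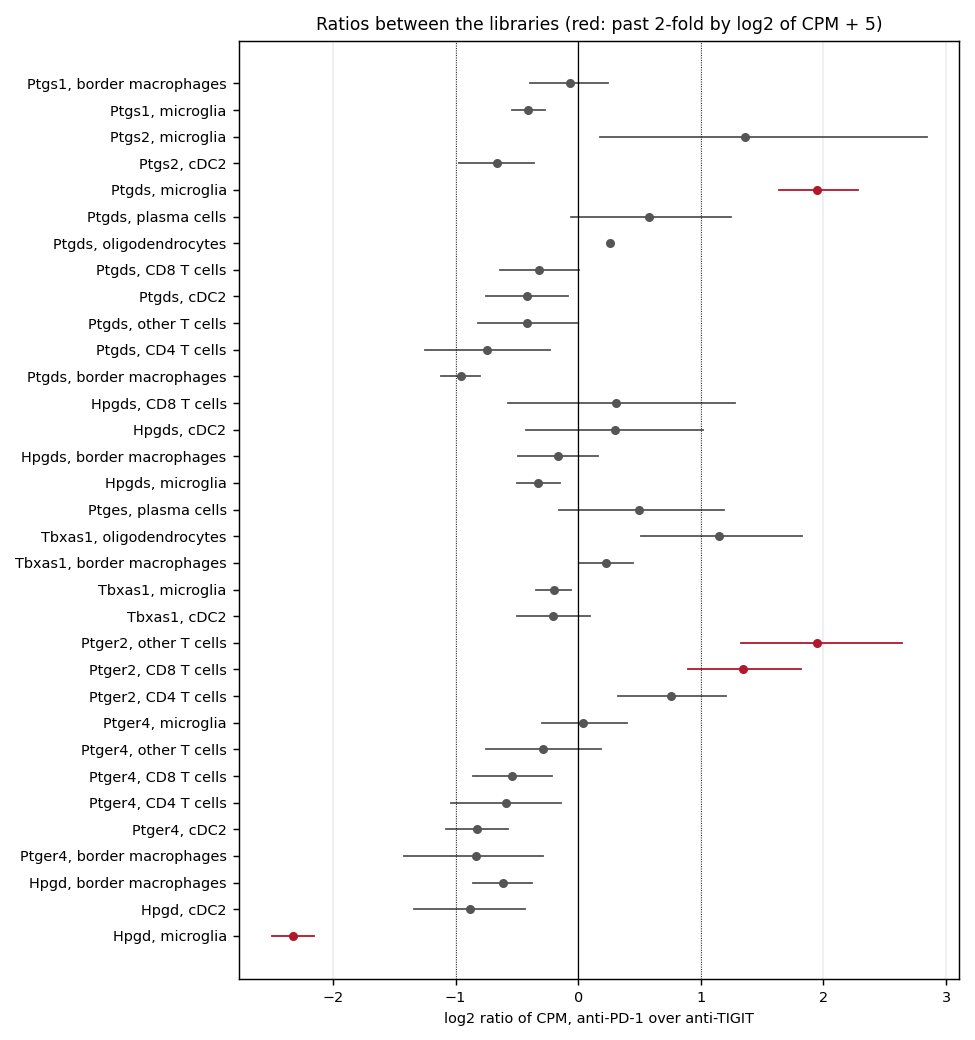
Log2 ratio of CPM, anti-PD-1 over anti-TIGIT, for every pair of a member and a compared gate with at least 50 UMIs, with 95% intervals of counting error; dotted lines mark 2-fold and red marks pairs called. Hpgd in microglia is at -2.32, Ptger2 at 1.34 in CD8 T cells and 1.95 in other T cells, and Ptgds in microglia at 1.95, a value that rests on 1 cell.

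Ptgs1, the constitutive H2 synthase, was a gene of microglia (GRCm38 chr2:36230426-36252272, + strand). It stood at 277 CPM (266 to 288) in anti-PD-1 microglia and 367 CPM (338 to 399) in anti-TIGIT microglia, a log2 ratio of -0.41 (-0.54 to -0.27). The median ratio over all genes in microglia was itself -0.18. Border macrophages held 135 CPM in the anti-PD-1 and 142 CPM in the anti-TIGIT library, with a ratio of -0.07 (-0.39 to 0.25). In the remaining gates of at least 50 cells Ptgs1 stayed below 15 CPM in either library. Oligodendrocytes, which should lack it, held 38 Ptgs1 UMIs in the anti-PD-1 library and 0 in the anti-TIGIT library, where C1qa stood at 91.0 CPM (anti-PD-1) and 7.44 CPM (anti-TIGIT). The part of free RNA in these low levels was not tested.

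Upstream of Ptgs1 lay a short GA-rich word that also stood near the RefSeq starts of Hpgds and Tbxas1, but not of Hpgd. These windows are shown because the 4 genes were led by macrophages and had alike profiles. Over 28 points (14 gates in 2 libraries, which share depth and free RNA) Pearson r was 0.91 for Ptgs1 with Hpgds, 0.88 for Hpgds with Tbxas1 and 0.77 for Ptgs1 with Tbxas1. With Hpgd it was 0.81 for Ptgs1, 0.86 for Hpgds and 0.80 for Tbxas1. The 250 bases before each start are from RefSeq on GRCm38, each read 5′ to 3′ on the strand of its gene, and capitals mark GAGGAAG or its reverse complement CTTCCTC.
Ptgs1: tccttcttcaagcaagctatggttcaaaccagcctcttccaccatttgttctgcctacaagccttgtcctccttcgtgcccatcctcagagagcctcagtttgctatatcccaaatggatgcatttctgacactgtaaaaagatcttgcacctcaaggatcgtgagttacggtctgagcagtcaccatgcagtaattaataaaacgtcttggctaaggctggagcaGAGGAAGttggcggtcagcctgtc
Hpgds: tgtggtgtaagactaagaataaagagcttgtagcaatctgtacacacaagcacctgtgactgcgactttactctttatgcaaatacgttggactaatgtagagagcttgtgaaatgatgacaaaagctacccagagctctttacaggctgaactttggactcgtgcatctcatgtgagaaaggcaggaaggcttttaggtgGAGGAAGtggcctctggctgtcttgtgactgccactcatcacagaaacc
Tbxas1: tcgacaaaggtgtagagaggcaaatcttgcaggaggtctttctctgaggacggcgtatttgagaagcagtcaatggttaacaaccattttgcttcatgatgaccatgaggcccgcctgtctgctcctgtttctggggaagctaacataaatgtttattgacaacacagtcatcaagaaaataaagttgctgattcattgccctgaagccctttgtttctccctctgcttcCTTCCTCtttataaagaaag
Hpgd: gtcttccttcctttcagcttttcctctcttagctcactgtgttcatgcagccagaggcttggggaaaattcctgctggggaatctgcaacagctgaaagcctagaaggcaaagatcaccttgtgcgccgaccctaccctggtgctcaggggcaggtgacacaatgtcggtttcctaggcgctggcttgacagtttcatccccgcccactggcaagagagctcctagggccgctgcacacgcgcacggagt
The windows are chr2:36230176-36230425 for Ptgs1, chr6:65144731-65144980 for Hpgds, chr6:38918736-38918985 for Tbxas1 and chr8:56294302-56294551 for Hpgd, which holds no match. The Tbxas1 window lies inside the GENCODE span of the gene given below, before a start internal to it. Most of the Hpgds window, its marked match included, also lies inside the GENCODE span of Hpgds. GAGGAAG, the core of sites bound by PU.1-type ETS factors of macrophages, was picked after these sequences were read. It was searched on both strands, and its first base from the start lay at -24 in Ptgs1, -49 in Hpgds and, on the opposite strand, -20 in Tbxas1. Windows of the other 6 members held no match, and 10.6% of 32851 such windows of all genes held one. A match is a run of letters, not a site shown to be bound.

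Ptgs2, the inducible H2 synthase, was scarce and uneven (chr1:150100031-150108227, + strand). It reached 60.2 CPM (50.5 to 71.2) in anti-PD-1 cDC2 and 95.3 CPM (84.04 to 108) in anti-TIGIT cDC2, a log2 ratio of -0.66 (-0.97 to -0.36). Most cDC2 had none: 84.6% of anti-PD-1 and 78.9% of anti-TIGIT cDC2 were at 0, and the highest cells held 11 and 15 UMIs. Migratory dendritic cells, which carry antigen to lymph nodes, held 72.5 CPM (54.0 to 95.4) in 119 anti-PD-1 cells and 169 CPM (119 to 234) in 41 anti-TIGIT cells. Both are above cDC2, with overlapping intervals in the anti-PD-1 library, but this gate was too small for the order of gates.

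Within cDC2, cells were split by a UMI of Il1b, an inflammatory cytokine gene, after each cell had been thinned to 1000 UMIs, and levels were taken from all UMIs of the cells. Cells with Il1b had 69.2 CPM of Ptgs2 in the anti-PD-1 library, against 37.5 CPM in cells without, a log2 ratio of 0.88 (0.24 to 1.58). In the anti-TIGIT library the values were 108 and 60.8 CPM, a ratio of 0.83 (0.35 to 1.33). By summed UMIs Ptgs2 was thus higher beside Il1b in both libraries, while Il1b-positive cells made up 69.1% of anti-PD-1 and 70.6% of anti-TIGIT cDC2. The thinned shares of cells with a Ptgs2 UMI had overlapping intervals. They were 6.31% (3.40 to 10.55) with and 3.26% (0.678 to 9.24) without Il1b in the anti-PD-1 library. In the anti-TIGIT library they were 6.77% (4.24 to 10.17) and 6.20% (2.72 to 11.85).

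In some other gates most Ptgs2 UMIs lay in 1 cell. Type 2 innate lymphoid cells (ILC2) held 74 UMIs in 74 anti-PD-1 cells, 47 of them in 1 cell, and 0 UMIs in 41 anti-TIGIT cells. The anti-PD-1 level was 237 CPM, or 88.8 CPM without that cell. Among 30 anti-TIGIT monocytes, at 129 CPM, 14 of 21 UMIs lay in 1 cell. Neutrophils held 0 UMIs in 3 anti-PD-1 cells and 16 UMIs, spread over 7 cells, in 27 anti-TIGIT cells, at 349 CPM (199 to 566). These levels are above cDC2 of the same library, in gates too small for the order. Microglia had 9.89 CPM in the anti-PD-1 library and 3.86 CPM in the anti-TIGIT library, from 88 and 6 UMIs. In thinned microglia a Ptgs2 UMI was seen in 0.492% of anti-PD-1 cells and in 0 of 372 anti-TIGIT cells, an exact upper limit of 0.987%.

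Ptgds makes prostaglandin D2 in the nervous system and also binds retinoids (chr2:25466709-25470046, - strand). Oligodendrocytes, which form myelin, held 78.1% of all 140090 Ptgds UMIs. Their level was 3890.3 CPM in the anti-PD-1 library and 3247 CPM in the anti-TIGIT library, a log2 ratio of 0.26 (0.24 to 0.28). That ratio moved with the way oligodendrocytes were taken, to 0.02 (0.00 to 0.04) with Leiden clusters and to 0.14 (0.10 to 0.18) after thinning.

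The level came from a minority of oligodendrocytes. No Ptgds UMI was found in 35.3% of 2480 anti-PD-1 oligodendrocytes or in 41.7% of 1945 anti-TIGIT oligodendrocytes, and the medians were 2 and 1 UMIs. At the other end 200 anti-PD-1 and 128 anti-TIGIT cells held over 100 UMIs. The tenth of cells with the most Ptgds carried 69.4% of the gate's Ptgds UMIs in the anti-PD-1 library and 65.8% in the anti-TIGIT library.

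The uneven level went with other oligodendrocyte genes. Cells with a UMI of Opalin, a myelin membrane protein gene, had 7553 CPM of Ptgds in the anti-PD-1 library and 7664 CPM in the anti-TIGIT library. Cells without Opalin had 2232 CPM in the anti-PD-1 library and 1377 CPM in the anti-TIGIT library. Klk6, a secreted protease gene that marks one subset of mature oligodendrocytes, showed the opposite: 1444 CPM with Klk6 against 8633 CPM without in the anti-PD-1 library, and 467 CPM with Klk6 against 6560.3 CPM without in the anti-TIGIT library. The log2 ratio of cells with over cells without Klk6 was -2.58 (-2.61 to -2.55) in the anti-PD-1 and -3.81 (-3.86 to -3.76) in the anti-TIGIT library.

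The libraries compared differently inside these subsets than over the whole gate. With Klk6, Ptgds had a log2 ratio of 1.63 (1.58 to 1.68) between the libraries, and without it 0.40 (0.38 to 0.42). Cells with Klk6 were 57.7% (55.7 to 59.8) of anti-PD-1 and 42.2% (39.9 to 44.4) of anti-TIGIT oligodendrocytes, so the library with more of the low-Ptgds cells had the higher level inside each subset. Opalin-positive shares were 36.1% and 36.6%. For Serpina3n, a protease inhibitor gene of reactive glia, Ptgds stood at 2465 CPM (anti-PD-1) and 2481 CPM (anti-TIGIT) in cells with it, and at 4807 CPM (anti-PD-1) and 3491 CPM (anti-TIGIT) in cells without. Opalin, Klk6 and Serpina3n were picked after the data were seen.

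**Figure D3:**
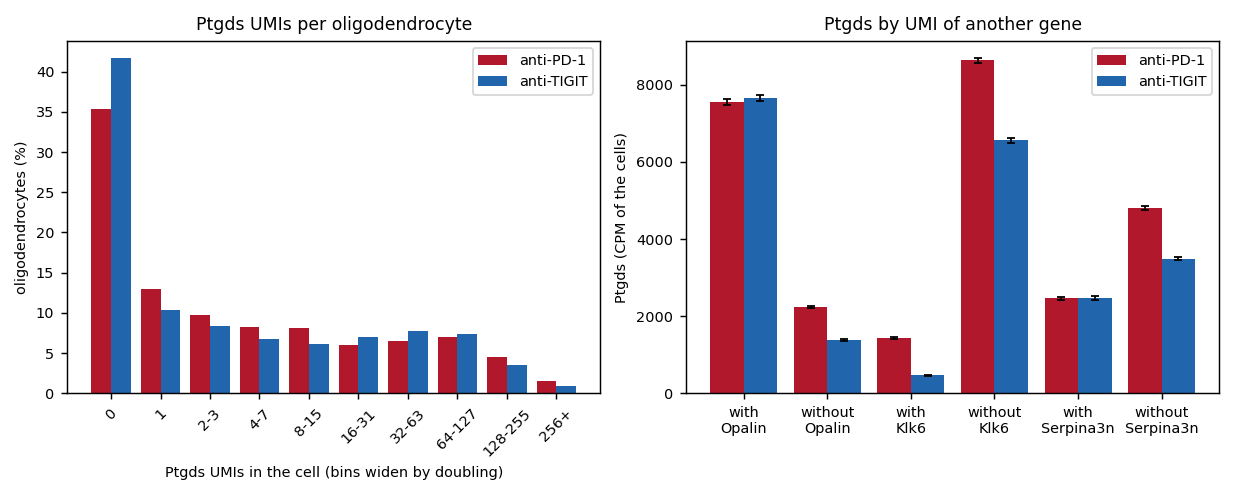
Left, share of oligodendrocytes (%) by their number of Ptgds UMIs in each library; right, Ptgds level (CPM) in oligodendrocytes with or without a UMI of Opalin, Klk6 or Serpina3n after thinning, with 95% Poisson intervals. Cells at 0 are the largest bin (35.3% anti-PD-1, 41.7% anti-TIGIT), and cells without Klk6 stand at 8633 CPM (anti-PD-1) and 6560.3 CPM (anti-TIGIT).

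Fibroblasts had a Ptgds UMI in 66.3% of anti-PD-1 and 54.5% of anti-TIGIT cells, and very high counts in a few anti-PD-1 cells. Their level was 3346 CPM in 202 anti-PD-1 cells and 513 CPM in 88 anti-TIGIT cells, too few for a call. Of 5202 anti-PD-1 UMIs, 1745 lay in 1 cell and 1556 in the next, and 7 anti-PD-1 fibroblasts held over 100 UMIs, against 0 anti-TIGIT fibroblasts. Fibroblasts with a UMI of Slc6a13, Aldh1a2 or Crabp2, genes of leptomeningeal fibroblasts, stood at 8624 CPM (61 anti-PD-1 cells) and 747 CPM (11 anti-TIGIT cells). Of the 4742 UMIs of these anti-PD-1 cells, 3862 lay in 3 cells, and the anti-TIGIT cells held 65 UMIs. Fibroblasts without any of the 3 genes stood at 458 CPM (anti-PD-1) and 455 CPM (anti-TIGIT).

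Cells in which Ptgds reached at least 10% of all UMIs numbered 12 in the anti-PD-1 library and 1 in the anti-TIGIT library. These 12 held 15.4% of the Ptgds UMIs of their library, between 315 and 3087 UMIs each, and 10 of the 12 had a UMI of Slc6a13, Aldh1a2 or Crabp2. By gate, 5 of them were in no gate, 3 in fibroblasts, 2 in oligodendrocytes, 1 in microglia and 1 among oligodendrocyte precursor cells (OPCs). The single anti-TIGIT cell held 182 UMIs, was in no gate, and had such a marker too.

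The microglial call for Ptgds rested on 1 of these cells. Microglia stood at 211 CPM in the anti-PD-1 library and 54.7 CPM in the anti-TIGIT library, a log2 ratio of 1.95 (1.63 to 2.28). Of 1877 anti-PD-1 UMIs, 1506 lay in 1 cell that also had UMIs of 2 fibroblast markers. Without the highest cell of each library the ratio was -0.19 (-0.55 to 0.19). OPCs, at 545 CPM (anti-PD-1) and 81.9 CPM (anti-TIGIT), had 1433 of their 1635 anti-PD-1 UMIs in 1 cell.

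Border macrophages held Ptgds at 464 CPM in the anti-PD-1 library and 903 CPM in the anti-TIGIT library, a log2 ratio of -0.96 (-1.12 to -0.80). CD8 T cells, which should lack it, held 40.7 CPM (anti-PD-1) and 50.9 CPM (anti-TIGIT). The part of free RNA, or of RNA from leptomeningeal cells, in the level of border macrophages was not tested. Astrocytes stood at 347 CPM (46 anti-PD-1 cells) and 536 CPM (33 anti-TIGIT cells).

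Hpgds, the prostaglandin D2 synthase of blood-derived cells and macrophages (chr6:65117293-65144908, - strand), followed Ptgs1. It stood at 173 CPM (165 to 182) in anti-PD-1 microglia and 217 CPM (194 to 241) in anti-TIGIT microglia, a log2 ratio of -0.32 (-0.50 to -0.15). Border macrophages held 127 and 141 CPM, a ratio of -0.16 (-0.49 to 0.16). Mast cells and basophils, in which this enzyme is well known, had 5 UMIs in 9 anti-PD-1 cells and 21 UMIs in 28 anti-TIGIT cells. Those are 227 CPM (73.7 to 530) and 448.5 CPM (278 to 686), above microglia in each library, but this gate was too small for the order of gates. CD8 T cells, which should lack it, held 7.42 and 5.99 CPM.

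Ptges, the inducible prostaglandin E2 synthase (chr2:30889471-30929863, - strand), was led by fibroblasts. They held 170.5 CPM (151 to 192) in the anti-PD-1 and 191 CPM (155 to 233) in the anti-TIGIT library, a log2 ratio of -0.17 (-0.51 to 0.18) from 202 and 88 cells. A Ptges UMI was found in 60.4% of anti-PD-1 and 58.0% of anti-TIGIT fibroblasts, and no cell had more than 8. By leptomeningeal genes, Ptges stood at 164 CPM with and 175 CPM without them in anti-PD-1 fibroblasts and at 149 and 200.2 CPM in anti-TIGIT fibroblasts. Plasma cells held 11.97 CPM (anti-PD-1) and 8.49 CPM (anti-TIGIT), and CD8 T cells 0.909 and 0.855 CPM. The gene overlaps Gm13400 on its own strand, and reads of the pair may not be told apart.

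Tbxas1, thromboxane A2 synthase (chr6:38875404-39084585, + strand), was found in macrophages, cDC1 and cDC2. Microglia held 276 CPM in the anti-PD-1 and 317 CPM in the anti-TIGIT library (log2 ratio -0.20, -0.34 to -0.06), and border macrophages 308 and 263 CPM (0.23, 0.01 to 0.45). The order of those gates turned between the libraries: their intervals overlapped in the anti-PD-1 library (265 to 287 and 273 to 346) and not in the anti-TIGIT library (289.7 to 346 and 239.6 to 288). cDC1, a dendritic cell type that primes CD8 T cells, held 154 CPM (anti-PD-1) and 129 CPM (anti-TIGIT), and cDC2 72.6 and 83.5 CPM, a log2 ratio of -0.20 (-0.50 to 0.09) in cDC2. Migratory dendritic cells held 18.5 CPM from 13 UMIs (anti-PD-1) and 18.3 CPM from 4 UMIs (anti-TIGIT).

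Hpgd, which encodes the enzyme that inactivates prostaglandins, was the member that differed most in microglia (chr8:56294585-56321043, + strand). It stood at 66.3 CPM (61.05 to 71.9) in anti-PD-1 microglia and 332 CPM (304 to 362) in anti-TIGIT microglia, a log2 ratio of -2.32 (-2.50 to -2.15), or -2.14 relative to the median of all genes. A UMI was found in 18.6% of 1267 anti-PD-1 and 52.0% of 396 anti-TIGIT microglia, and after thinning in 8.04% (6.57 to 9.71) and 24.7% (20.4 to 29.4). CD8 T cells, which should lack it, had thinned shares of 0.202% and 0%. The call held at every alternative that left microglia to compare, with log2 ratios between -2.52 and -1.70. It was -2.25 among cells with Xist and no Y-linked UMI and -2.29 among cells with a Y-linked UMI and no Xist.

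Hpgd went with the absence of Cxcl13, a B cell attractant that activated microglia can make, which was picked after the data were seen. In anti-PD-1 microglia Hpgd stood at 16.9 CPM in cells with a Cxcl13 UMI and 159.9 CPM in cells without, a log2 ratio of -3.24 (-3.57 to -2.93). In anti-TIGIT microglia the values were 72.8 and 411 CPM, a ratio of -2.50 (-3.11 to -1.94). Cells with Cxcl13 were 60.05% (57.2 to 62.8) of anti-PD-1 and 19.4% (15.5 to 23.7) of anti-TIGIT microglia. Between the libraries Hpgd remained lower in both subsets, by a log2 ratio of -2.10 (-2.73 to -1.43) with Cxcl13 and -1.36 (-1.55 to -1.18) without.

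The other macrophage members were far less split by Cxcl13. Ptgs1 stood at 255 CPM with and 319 CPM without Cxcl13 in anti-PD-1 microglia, and at 299 and 387 CPM in anti-TIGIT microglia. Log2 ratios of cells with over cells without were -0.32 and -0.37 for Ptgs1, -0.33 and -0.58 for Hpgds, and -0.34 and -0.79 for Tbxas1, in the anti-PD-1 and the anti-TIGIT library. A thinned Ptgs1 UMI was seen in 32.7% (23.5 to 42.9) of anti-PD-1 microglia with Hpgd and 21.9% (19.6 to 24.5) of those without, and in 40.2% (30.1 to 50.96) and 27.9% (22.7 to 33.5) of anti-TIGIT microglia. The intervals of cells with and without Hpgd overlap in both libraries, and the difference was not tested.

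**Figure D4:**
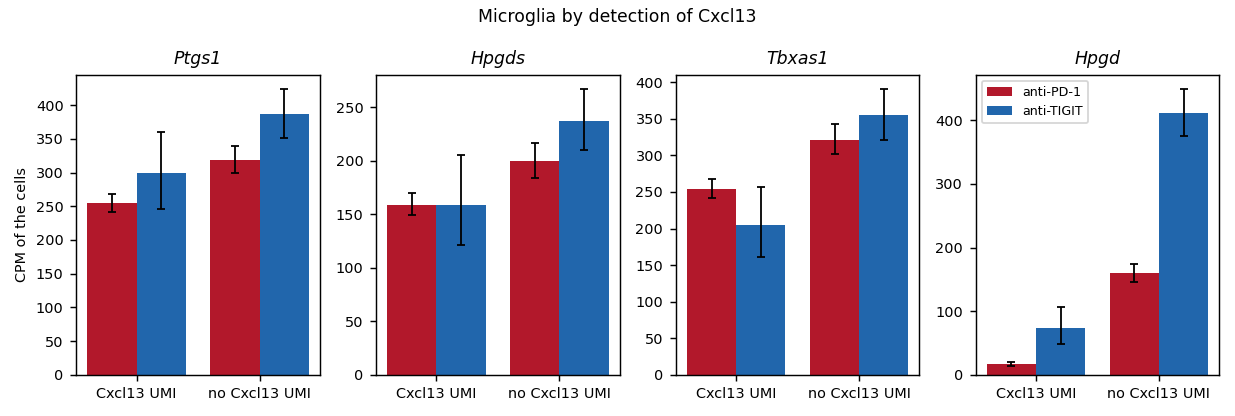
Levels (CPM, with 95% Poisson intervals) of Ptgs1, Hpgds, Tbxas1 and Hpgd in microglia with or without a Cxcl13 UMI after thinning, anti-PD-1 left of anti-TIGIT. Hpgd stands at 16.9 (anti-PD-1) and 72.8 CPM (anti-TIGIT) with Cxcl13 and at 159.9 and 411 CPM without, and the other genes keep most of their level in both subsets.

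In border macrophages Hpgd stood at 214 CPM in the anti-PD-1 and 327 CPM in the anti-TIGIT library, a log2 ratio of -0.62 (-0.86 to -0.38). Cells with a UMI of Lyve1, a hyaluronan receptor gene of vessel-associated macrophages, held 419.7 CPM (46 anti-PD-1 cells) and 387 CPM (128 anti-TIGIT cells). Cells without Lyve1 held 157 and 294 CPM. The ratio between the libraries was 0.12 (-0.28 to 0.50) with Lyve1 and -0.90 (-1.22 to -0.59) without, and whether these 2 ratios differ was not tested. Hpgd was also seen in cDC2, at 26.99 CPM (anti-PD-1) and 49.7 CPM (anti-TIGIT), a log2 ratio of -0.88 (-1.34 to -0.43). The gene overlaps Gm45540 on its own strand.

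Ptger2, which encodes the EP2 receptor, was a T cell gene (chr14:44988195-45003820, + strand). CD4 T cells held 105 CPM (90.4 to 121) in the anti-PD-1 and 61.9 CPM (47.02 to 80.1) in the anti-TIGIT library, a log2 ratio of 0.76 (0.33 to 1.21) that was 0.19 (-0.20 to 0.60) with Leiden clusters. CD8 T cells held 49.8 CPM (44.6 to 55.5) and 19.7 CPM (14.4 to 26.2), a ratio of 1.34 (0.89 to 1.82), which was called. In other T cells the level was 78.6 CPM (anti-PD-1) and 20.3 CPM (anti-TIGIT), a ratio of 1.95 (1.32 to 2.64), also called. Regulatory T cells held 61.3 and 39.6 CPM, from 136 and 14 UMIs. The ratio was above 0 in all 4 T cell gates, but its interval reached -0.17 in regulatory T cells.

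The gene was seen in few cells. Thinned shares were 4.38% (3.40 to 5.55) of anti-PD-1 and 1.12% (0.451 to 2.29) of anti-TIGIT CD8 T cells, and 0.0871% and 0% of oligodendrocytes. B cells had 0 Ptger2 UMIs in both libraries. Macrophage RNA, by C1qa, was also higher in these anti-PD-1 T cells (127 against 9.41 CPM in CD8 T cells, 165 against 18.5 CPM in other T cells), and Ptger2 stood at 3.71 CPM in anti-PD-1 microglia. Gm17173 and Gm49364 are annotated on the opposite strand over Ptger2. Gm17173 was counted at 50.4 CPM (anti-PD-1) and 15.4 CPM (anti-TIGIT) in CD8 T cells and was the gene whose profile was most like that of Ptger2 (r = 0.97 over the 28 points). The sources used here do not say whether counting used strand, so reads of the pair may not be told apart.

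CD8 T cells with a UMI of Pdcd1, the target of one of the antibodies, held more Ptger2 in both libraries: 64.2 CPM with and 37.1 CPM without Pdcd1 in the anti-PD-1 library, a log2 ratio of 0.79 (0.47 to 1.12), and 40.5 and 15.1 CPM in the anti-TIGIT library, a ratio of 1.42 (0.46 to 2.33). Pdcd1-positive cells were 49.7% (47.1 to 52.3) of anti-PD-1 and 15.5% (12.7 to 18.6) of anti-TIGIT CD8 T cells. Among cells without Pdcd1 the libraries differed by a log2 ratio of 1.29 (0.70 to 1.93). Among cells with it the ratio was 0.67, with an interval that held 0 (-0.05 to 1.47). Over all CD8 T cells the call was lost among cells with a Y-linked UMI and no Xist UMI, at 0.75 (0.11 to 1.43), and with a pseudocount of 20 CPM, at 0.82.

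Ptger4, which encodes the EP4 receptor, was spread over more cell types (chr15:5206661-5244187, - strand). Among the gates large enough for the order of gates, it was highest in cDC2. There it stood at 84.97 CPM (73.4 to 97.9) in the anti-PD-1 and 151 CPM (136 to 166) in the anti-TIGIT library. The log2 ratio was -0.83 (-1.08 to -0.57). Migratory dendritic cells, a gate too small for the order, held 78.2 CPM (anti-PD-1) and 165 CPM (anti-TIGIT). The anti-PD-1 level is below that of cDC2, and the anti-TIGIT level is above it but inside the cDC2 interval. In cDC2 with an Il1b UMI Ptger4 stood at 96.3 CPM (anti-PD-1) and 162 CPM (anti-TIGIT), and in those without at 56.3 and 119 CPM. Microglia held 54.3 and 52.7 CPM, a ratio of 0.04 (-0.30 to 0.40), and B cells 34.9 and 35.4 CPM.

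In CD8 T cells the EP4 gene ran the other way to the EP2 gene by summed UMIs, but Ptger4 was called in no gate. CD8 T cells held 36.8 CPM (32.3 to 41.7) in the anti-PD-1 and 53.4 CPM (44.5 to 63.7) in the anti-TIGIT library, a log2 ratio of -0.54 (-0.86 to -0.22). CD4 T cells held 54.6 and 82.2 CPM, a ratio of -0.59 (-1.04 to -0.14), although the thinned shares of CD4 T cells with a Ptger4 UMI, 6.98% (anti-PD-1) and 6.33% (anti-TIGIT), did not follow that order and the ratio was 0.15 (-0.61 to 0.95) after thinning and 0.01 (-0.73 to 0.81) with Leiden clusters. In regulatory T cells, at 55.01 and 79.3 CPM, and in other T cells, at 44.1 and 53.9 CPM, the intervals held 0. By Pdcd1, Ptger4 in CD8 T cells stood at 34.05 CPM (anti-PD-1) and 33.4 CPM (anti-TIGIT) with Pdcd1, and at 39.1 and 57.9 CPM without. The log2 ratios between the libraries were 0.03 (-0.78 to 0.95) with and -0.57 (-0.94 to -0.19) without Pdcd1. Of 65 thinned anti-PD-1 CD8 T cells with a Ptger2 UMI, 0 had a Ptger4 UMI, an exact upper limit of 5.52%, against 4.37% of the cells without Ptger2.

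**Figure D5:**
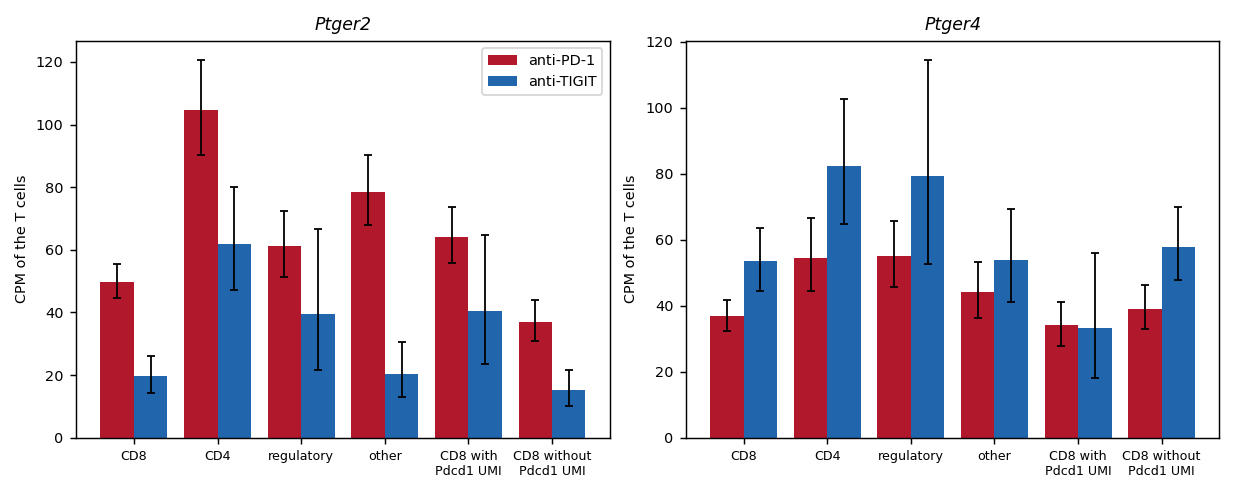
Levels (CPM, with 95% Poisson intervals) of Ptger2 and Ptger4 in 4 gates of T cells and in CD8 T cells with or without a Pdcd1 UMI after thinning, anti-PD-1 left of anti-TIGIT. Ptger2 is higher in anti-PD-1 in every pair (49.8 against 19.7 CPM in CD8 T cells), and Ptger4 is lower in anti-PD-1 in the 4 gates (36.8 against 53.4 CPM in CD8 T cells).

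The rest of the prostanoid pathway, 20 further genes of substrate release, synthesis, sensing, transport and breakdown, had 0 genes called in any of the 9 compared gates. Between 7 (B cells) and 12 (microglia and cDC2) of the 20 had the 10 UMIs needed for a call in a gate. Shares of all genes called ran from 0.216% to 5.89% by gate and direction, so 0 calls among so few genes is near those shares. The median ratio of these pathway genes was 0.09 in microglia (12 genes with at least 10 UMIs, against -0.18 over all genes) and -0.04 in CD8 T cells (10 genes, against -0.01). Fibroblasts led several of them: Ptgis, prostacyclin synthase, at 126 CPM (anti-PD-1) and 103 CPM (anti-TIGIT), and Ptgdr, the DP1 receptor for prostaglandin D2, at 89.4 and 101 CPM. Pla2g4a, the phospholipase that releases arachidonic acid, was highest in oligodendrocytes, at 74.7 and 94.4 CPM. Pla2g2d, a secreted phospholipase, stood at 51.7 and 52.01 CPM in border macrophages.

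Tbxa2r, the thromboxane receptor, was highest in CD8 T cells, at 16.4 and 22.7 CPM (log2 ratio -0.47, -0.96 to 0.03). The largest ratios among the 20 with at least 50 UMIs were 0.85 (0.46 to 1.24) for Ptges3, a cochaperone with prostaglandin E2 synthase activity, in B cells and 1.89 (0.98 to 2.93) for Abcc4, a prostaglandin exporter, in oligodendrocytes, where it stood at 3.32 CPM (anti-PD-1) and 0.892 CPM (anti-TIGIT). The lowest was -0.61 (-1.55 to 0.44) for Ptgr1, a prostaglandin reductase, in microglia. Ptgdr2, another receptor for prostaglandin D2, had 8 UMIs in all.

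The leukotriene branch, which draws on the same arachidonic acid, had 9 genes. Ltc4s, leukotriene C4 synthase, was called lower in microglia, at 129 CPM in the anti-PD-1 and 305 CPM in the anti-TIGIT library (log2 ratio -1.24, -1.40 to -1.08), and 5 of 5 branch genes with at least 10 UMIs there had an interval below 0. Their median was -0.88, against -0.18 over all genes. How many of all genes in microglia had an interval below 0 was not counted. In cDC2 1 of 6 branch genes was called higher (0.778% of all genes). Ltc4s stood in cDC2 at 16.8 CPM in the anti-PD-1 and 3.71 CPM in the anti-TIGIT library, the opposite order to microglia. Alox15, a lipoxygenase gene, was called lower in border macrophages, at 14.3 and 44.2 CPM. Alox5ap, which presents arachidonic acid to the 5-lipoxygenase, was called higher in CD8 T cells, at 17.3 and 2.14 CPM, and in plasma cells, at 10.5 and 0.314 CPM. Those Alox5ap levels ran with C1qa in the same gates (127 and 9.41 CPM in CD8 T cells, 68.4 and 2.20 CPM in plasma cells), and the part of free RNA was not tested.

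Genes whose profiles over the 28 points were most like a member's were named by Pearson r of log2(CPM + 5), as a description. Ptgs1 ran with Slc11a1, Mlxipl and Slco2b1 (r = 0.96 each), Hpgds with Adgre1 (0.96), Csf1r and Plau (0.95 each), and Tbxas1 with Tlr13, P2ry6 and Cd300c2 (0.98 each). Hpgd ran with 2610203C22Rik (0.96), Clec4a2 and Gm5086 (0.95 each). Ptges ran with Alpl, Cped1 and Mfap5 (0.96 each) and Ptgds with Sorbs3, Gamt and Hmox2 (0.89 each). For Ptgs2 the nearest was Il1bos (0.91), and for Ptger4 Nfkbid (0.96).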

How the data were processed

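The deposited matrices hold UMI counts per gene and barcode, made by the authors with Cell Ranger 8.0.0 (anti-PD-1) and 8.0.1 (anti-TIGIT) per the file headers, on mm10 (GRCm38) per the submitters' processing notes. Output of Seurat 5.0.3 and R 4.1.1, listed there too, was not used. The labels name the optic nerve, while their protocol also speaks of dura, and whether dura entered these libraries is not stated. Whether counting used strand is not given in the sources used here.

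Barcodes with under 200 genes (39 anti-PD-1, 89 anti-TIGIT) or over 10% mitochondrial UMIs (107, 176) were left out, as were 576 and 155 doublets called by Scrublet per library. Cells were gated by fixed markers, at least 3 per cell. T cells took precedence over NK cells and ILC2, plasma cells over B cells and migratory over other dendritic cells, and 1310 and 559 cells in several other gates were left out. UMIs were summed per gate and library and given as CPM, with exact Poisson intervals for levels, exact conditional binomial intervals for ratios and Clopper-Pearson intervals for shares. A share of 0 has its exact upper limit. UMIs are single molecules, but intervals hold neither cell nor mouse spread. Comparisons took gates of at least 100 cells per library and genes with at least 10 UMIs, and a call needs a log2 difference of at least 1 in (CPM + 5). Splits by a gene used cells of at least 1000 UMIs, thinned to 1000 for detection only.

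All 9 members are named, with the 2 highest and 2 lowest ratios, by log2 of (CPM + 5), of each list of other pathway genes among genes with at least 50 UMIs. List genes in their highest gate and the 3 genes most like each member (gate markers left out) are named too. The members and lists were chosen with earlier results of these data known. The values of some list genes are not reported here. The calculation was tested on simulated data. Gene positions are from GENCODE and upstream sequences from RefSeq, both on GRCm38. Alternatives were 2 or 4 markers per gate, cells in several gates kept, Leiden clusters (resolution 1), no doublet removal, limits of 500 genes and 5% mitochondrial UMIs, cells of either sex by Xist and 4 Y-linked genes, thinning before summing, scaling by the median ratio, pseudocounts of 1 and 20 CPM and minimums of 1 and 50 UMIs. Leaving out the cell with the most UMIs was added after seeing the data. Software was Python 3.11.15, scanpy 1.11.5, scipy 1.17.1, numpy 2.4.6, pandas 2.3.3, leidenalg 0.10.2 and matplotlib 3.10.9.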

Additional observations from a re-analysis of the deposited data

Results flagged for a closer look

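The log2 ratio of Ptgds in microglia, 1.948 (anti-PD-1 over anti-TIGIT), had the opposite sign to that in border macrophages, -0.9594, and to that in CD4 T cells, -0.7414. These differences between gates were not tested. The microglial value rests on 1 anti-PD-1 cell with 1506 of 1877 UMIs, and without the highest cell of each library it was -0.19 (-0.55 to 0.19).

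Cells outside every gate, which no comparison used, held members above the limit that a count of 0 allows. Ptgds stood there at 1518 CPM in the anti-PD-1 library. In 1 Leiden cluster of such cells, led by Ttr, Dcn and Vtn, it stood at 22504 CPM (191 anti-PD-1 cells, highest cell 3087 UMIs) and 3002 CPM (93 anti-TIGIT cells, highest cell 182 UMIs). Ptges stood at 47.85 CPM (anti-PD-1) and 33.42 CPM (anti-TIGIT) in ungated cells, and at 207 and 212 CPM in the cluster led by Ccn3 and Mgp. Ptgs1 stood at 56.98 and 24.92 CPM, Hpgds at 55.99 and 30.49 CPM and Ptgs2 at 9.968 and 25.51 CPM, anti-PD-1 first in each pair, and Hpgd at 67.14 CPM in the anti-TIGIT library.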

How the results depend on the processing

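Of 52 pairs of a member and a gate, 4 were called. That number was 9 with 4 markers per gate (10 gates compared), 15 with cells of several gates kept (11 gates), 15 with Leiden clusters (13 gates), 2 with Xist-positive cells (2 gates), 9 after thinning before summing and 10 with a pseudocount of 1 CPM. Neither the eligible pairs nor the share of all genes called is given beside these numbers. Shifts in them therefore cannot be read as a result about the members. The number of members with the same highest gate in both libraries, 7 of 9, was 4 with 2 markers per gate. Ptgds in microglia reversed, to -0.90 with 2 markers, -1.18 with 4, -0.75 with Leiden clusters, -0.38 among cells with a Y-linked UMI and -0.19 without the highest cell. Where the number of gates compared differed it is given, and otherwise the cause was not tested. No paired analysis was possible because each group is 1 library and the labels carry no replicate numbers. Gates under 100 cells in a library, among them fibroblasts, OPCs and regulatory T cells, were too small for calls, and members under 10 UMIs in a gate are limited by depth.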

Other observations

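Type 2 innate lymphoid cells, at 74 anti-PD-1 and 41 anti-TIGIT cells, held the highest level of Ptgir, the prostacyclin receptor, at 54.4 and 19.3 CPM (17 and 2 UMIs). Astrocytes, at 46 anti-PD-1 and 33 anti-TIGIT cells, held Pla2g5, a secreted phospholipase, at 150.2 and 102 CPM (45 and 16 UMIs) and Ptges at 50.1 and 6.38 CPM (15 and 1 UMIs). Ungated cells of the Leiden cluster led by Cxcl2, Lyz2 and Ms4a7 (299 anti-PD-1 and 398 anti-TIGIT cells) held Hpgd at 42.6 and 127 CPM, Ptgs1 at 87.4 and 44.2 CPM and Tbxas1 at 213 and 181 CPM.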
